A study of Mus musculus with 18 samples.

Results

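The comparison set 3 libraries of cholangiocytes from mice with polycystic liver disease (PLD) treated with ML324 against 3 libraries from untreated PLD mice, out of 18 libraries in the series. The members were chosen by library title alone, and every gene with enough counts was tested, 16502 of 55401 listed. The ML324 libraries carry 3 months in their titles, and the untreated libraries were made 2 months after tamoxifen. The protocols also describe the libraries of treated mice apart from those of the untreated time course. Treatment, time and library set therefore change together between the groups, and their effects cannot be told apart. All 6 libraries are labelled as the PLD genotype. The inactivated gene, the Cre line, the mouse strain, the dose, the schedule and any vehicle are not given in the sources used here. A group of 3 PLD libraries treated with CPTH6, also titled 3 months, served as a companion from the same library set. No untreated library has the month and library set of the treated ones.

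Cholangiocytes are the epithelium of the bile ducts. In polycystic liver disease they multiply, secrete fluid and form cysts, and the cyst wall draws in fibroblasts, vessels and immune cells. ML324 is known as an inhibitor of the KDM4 family, enzymes that remove methyl groups from lysines of histone H3, and CPTH6 as an inhibitor of the lysine acetyltransferases Kat2a and Kat2b. Both act on proteins, so the level of a target's transcript does not check whether a mouse received the compound. The cells were taken from perfused livers by removing the parenchyma, digesting the biliary tree and capturing cells on beads against EpCAM, so a library can also hold other cells of the duct wall.

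Total counts were 16345740 to 17922506 in the ML324 libraries and 17048976 to 19958375 in the untreated libraries. Levels are given as CPM, counts relative to the library size as scaled by TMM, and changes as log2 fold changes ± standard error from edgeR with n = 3 libraries per group. A gene was called when its Benjamini-Hochberg adjusted p was under 0.05, and "rose", "fell", "higher" and "lower" are used for called genes. The labels do not say whether replicates are separate animals, so p-values measure only the spread between these libraries, which may be technical.

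ML324 replicate 2 stood apart from the other 2 ML324 libraries in its markers of other cell types. Endothelial markers averaged 2.98, 5.38 and 3.13 log2 CPM in ML324 replicates 1, 2 and 3, against 5.47, 6.31 and 5.11 in the untreated libraries. Stellate cell and fibroblast markers averaged 2.75, 4.72 and 3.23 in the ML324 libraries, against 6.57, 6.47 and 6.76 in the untreated libraries. Replicate 2 was the highest ML324 library for all 17 endothelial markers and all 20 stellate cell and fibroblast markers, and for the endothelial list it lay within the range of the untreated libraries. Neutrophil markers averaged 3.34, 5.11 and 2.05 log2 CPM in the ML324 libraries, against 0.27, 0.16 and 0.77 in the untreated libraries. Replicate 2 was again the highest ML324 library, for 11 of 11. In the CPTH6 libraries these markers averaged 2.16, 5.15 and 5.56, so CPTH6 replicates 2 and 3 lay above ML324 replicate 2. The cholangiocyte markers that define the labelled cell type were high throughout, at 8.20, 8.07 and 8.23 log2 CPM in the ML324 libraries and 8.07, 7.97 and 8.07 in the untreated libraries. Keratin 19 (Krt19) had 3376, 2695 and 3789 CPM in the ML324 libraries and 2971, 2612 and 2587 CPM in the untreated libraries. Because of replicate 2, each list was also counted without it, and the plot of list calls shows both counts for the lists it holds.

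**Figure D1:**
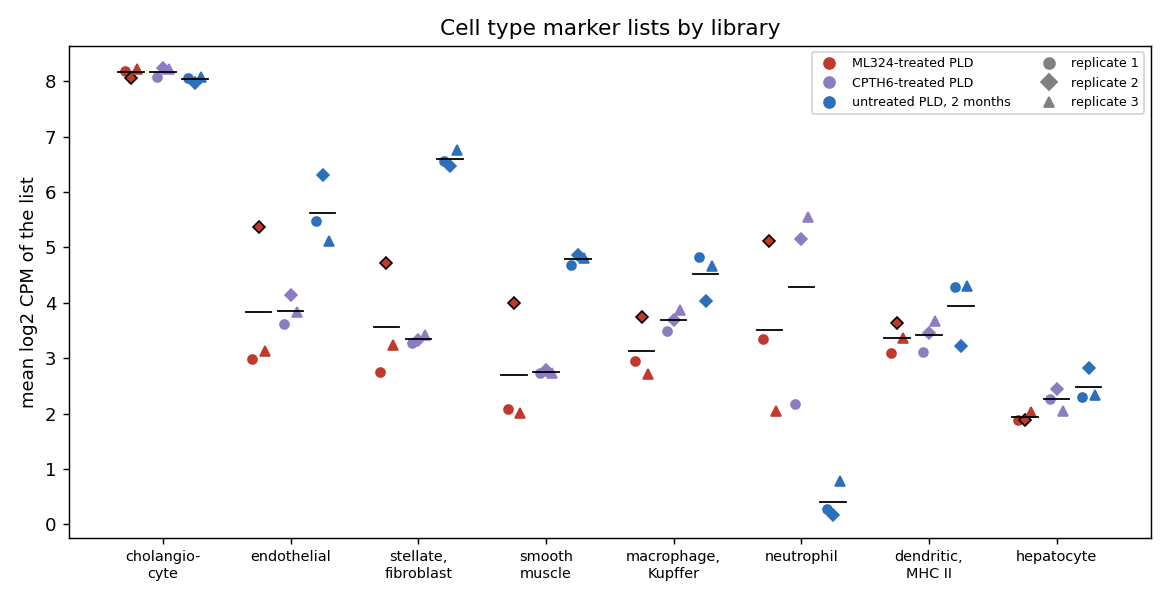
Mean log2 CPM of 8 cell type marker lists in each library of the ML324, CPTH6 and untreated PLD groups, with the group mean as a line and ML324 replicate 2 outlined in black. Cholangiocyte markers lie near 8 in every library, while ML324 replicate 2 lies above the other ML324 libraries for endothelial, fibroblast, smooth muscle, macrophage and neutrophil markers.

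Transcripts of the stroma around ducts fell. Of the stellate cell and fibroblast markers, 19 of 20 were called lower and 0 higher, with a median log2 fold change of -2.96, where 11.4% of all genes tested were called lower, 7.96% were called higher and the median over all genes was -0.01. Without ML324 replicate 2 all 20 were lower. Col1a1 (ENSMUSG00000001506.10, chromosome 11 from 94936224 to 94953042, mm10), the alpha 1 chain of type I collagen, had 51.0, 104 and 44.0 CPM in the ML324 libraries, against 1240, 401 and 1608 CPM in the untreated libraries. The groups did not overlap, and the change was -4.03 ± 0.52 (edgeR adjusted p = 0.00142). Hand2, a transcription factor of hepatic stellate cells, fell by 3.98 ± 0.38, and the PDGF receptor genes Pdgfrb and Pdgfra fell by 3.42 ± 0.41 and 2.99 ± 0.36. The summed level of this list was 350, 1089 and 458 CPM in the ML324 libraries, against 6174, 3776 and 7848 CPM in the untreated libraries, and no member was at 0 in any of the 6. In bulk RNA, fewer cells of a type and less RNA per cell cannot be told apart.

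The endothelial and smooth muscle counts depended on replicate 2 and on the method. Of 17 endothelial markers, 4 were called lower with all libraries (median -1.51), 17 without ML324 replicate 2 (median -2.60), and 2 without ML324 replicate 1, ML324 replicate 3, untreated replicate 1 or untreated replicate 2. With all libraries kept, 12 were lower by limma-voom, 15 without a filter on low counts, 7 by DESeq2, 8 with cholangiocyte scaling and 2 with the 6 libraries fitted alone. Eng, a TGF-beta co-receptor of endothelium, had 25.1, 98.7 and 24.4 CPM in the ML324 libraries, against 252, 329 and 226 CPM in the untreated libraries, and fell by 2.44 ± 0.51. In contrast, Clec4g, a lectin of sinusoidal endothelium, had 2.69, 40.7 and 1.77 CPM in the ML324 libraries, against 11.2, 24.4 and 7.44 CPM in the untreated libraries, so replicate 2 alone lay above all untreated libraries. Clec4g was not called with that library (0.07 ± 0.95) and was lower without it (-2.68, edgeR adjusted p = 0.00706). Of 10 smooth muscle and myofibroblast markers 6 were called lower, and all 10 without ML324 replicate 2, by limma-voom or without the filter. With all libraries, 11.4% of all genes tested were called lower.

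Macrophage markers were lower in 12 of 18 tested, where 11.4% of all genes were lower, and in 10 without ML324 replicate 2. The count was 7 without ML324 replicate 3, untreated replicate 1 or untreated replicate 3, and 7 with the 6 libraries fitted alone. The complement genes C1qa, C1qb and C1qc, which tissue macrophages express, fell by 2.15 ± 0.39, 2.06 ± 0.37 and 2.22 ± 0.37. Cd163, a haemoglobin scavenger receptor, had 0.672, 2.76 and 0.590 CPM in the ML324 libraries, against 28.2, 13.0 and 22.7 CPM in the untreated libraries, and Spic, a transcription factor of red pulp and other iron-handling macrophages, fell by 4.44 ± 0.49. All 3 ML324 libraries lay below the untreated ones for both genes.

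Across all genes, 3203 of 16502 were called (19.4%), 1314 higher (7.96%) and 1889 lower (11.4%). These shares are the background for the list counts with TMM. Of these, 356 rose and 1121 fell by at least 2-fold. The median size of change was 0.61 among genes called higher and 1.31 among genes called lower. Of the called genes, 1309 higher and 1850 lower ones did not overlap between the groups, which held for 17.4% (higher) and 20.1% (lower) of all genes tested. Without ML324 replicate 2, edgeR called 3043 of 16946 genes, 1133 higher (6.69%) and 1910 lower (11.3%). The count of called genes was 1939 without ML324 replicate 3 (791 higher, 1148 lower) and 2007 without untreated replicate 3 (721 higher, 1286 lower). The lower count was 1252 without ML324 replicate 1, and the higher count 804 without untreated replicate 1. Of the genes called with all libraries, 978 of the 1314 higher and 1516 of the 1889 lower were called the same way without replicate 2, and 0 changed sign. Replicate 2 was the highest of the 3 ML324 libraries in 62.8% of the genes called lower, against 34.0% of all genes tested. Scaled by the cholangiocyte markers in place of TMM, the median of all genes moved by -0.20 and the split became 549 higher and 3129 lower, so small changes depend on the scaling.

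**Figure D2:**
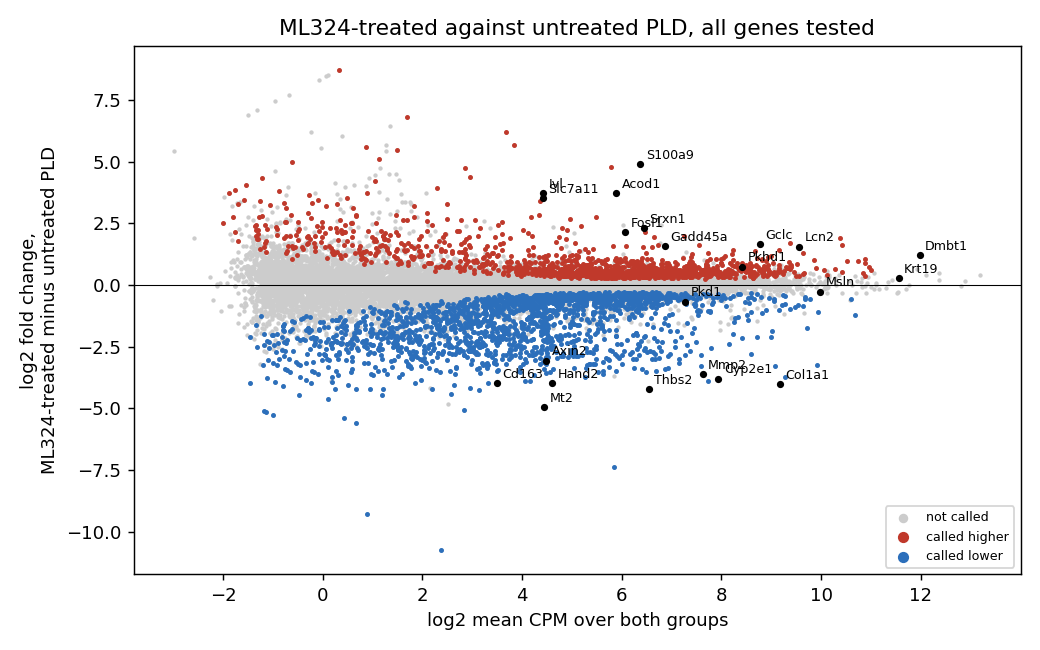
Log2 fold change, ML324-treated minus untreated PLD, against the log2 of mean CPM over both groups, for 16502 genes; red and blue points were called higher and lower, and grey points were not called. Stromal genes such as Col1a1 and Thbs2 lie near -4, and Slc7a11, Ivl and Acod1 lie above 3.

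The companion comparison of ML324 with CPTH6 kept month and library set the same, but depth differed with the compound. Total counts were 25646673 to 29161949 in the CPTH6 libraries, above the 16345740 to 17922506 of the ML324 libraries. Mitochondrial genes took 2.22% to 2.36% of counts in the CPTH6 libraries and 1.40% to 1.74% in the ML324 libraries. By edgeR, 0 genes were called (0.0%), with a smallest adjusted p of 0.181 and 2027 genes at an unadjusted p under 0.05. DESeq2 called 184 genes, and edgeR without a filter on low counts called 765. This comparison has no untreated library, and a lack of calls does not show that the compounds act alike. The difference of ML324 from CPTH6 is given here and below with its unadjusted 95% interval for some of the genes described. It was 0.36 for Col1a1 (-0.68 to 1.40), 0.84 for Hand2 (-0.03 to 1.72), -0.38 for S100a9 (-2.13 to 1.38) and 0.16 for Acod1 (-0.67 to 1.00). Stellate cell and fibroblast markers averaged 3.57 log2 CPM after ML324, 3.34 after CPTH6 and 6.60 in untreated PLD. Wnt feedback targets averaged 1.88, 1.76 and 3.20 in the same order. The ML324 and CPTH6 groups each differ from untreated PLD in month and library set, and any change the treated groups share cannot be told apart from those.

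The NRF2 pathway defends cells against oxidants and electrophiles. Of 21 of its genes tested, 9 were called higher and 0 lower (median 0.48), where 7.96% of all genes were called higher, and the same count, 9, was called without ML324 replicate 2. The count was 5 without ML324 replicate 3 or with the 6 libraries fitted alone, and 6 with cholangiocyte scaling. Slc7a11 (ENSMUSG00000027737.10, chromosome 3 from 49892526 to 50443614, mm10), the cystine transporter that supplies glutathione synthesis, had 31.8, 50.6 and 35.8 CPM in the ML324 libraries, against 4.00, 1.69 and 4.59 CPM in the untreated libraries. It rose by 3.52 ± 0.36 (edgeR adjusted p = 0.000699), with no overlap between the groups. Srxn1 (ENSMUSG00000032802.8, chromosome 2 from 152105516 to 152111376), sulfiredoxin, which reactivates peroxiredoxins, had 144, 129 and 161 CPM in the ML324 libraries, against 32.5, 24.2 and 31.5 CPM in the untreated libraries. Its change was 2.30 ± 0.15 (edgeR adjusted p = 0.000152), and replicate 2 lay close to the other ML324 libraries. Gclc, the catalytic subunit of the first enzyme of glutathione synthesis, had 527, 670 and 792 CPM in the ML324 libraries, against 233, 222 and 175 CPM in the untreated libraries, a rise of 1.66 ± 0.21.

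Thioredoxin reductase (Txnrd1) rose by 1.16 ± 0.13, and Pgd of the pentose phosphate pathway, a source of NADPH, by 0.86 ± 0.17. Smaller rises that were lost when single libraries were left out were those of Gclm, the modifier subunit of the same glutathione enzyme (0.55 ± 0.15), the peroxiredoxin gene Prdx1 (0.58 ± 0.15) and glutathione reductase, Gsr (0.53 ± 0.15). With cholangiocyte scaling these calls were also lost (0.115 for Gclm, 0.0697 for Prdx1 and 0.142 for Gsr). Without ML324 replicate 3 their edgeR adjusted p-values were 0.0521 for Gclm, 0.0808 for Prdx1 and 0.101 for Gsr. The Gclm call was also lost without untreated replicate 1 or 3, that of Prdx1 without untreated replicate 2 or 3, and that of Gsr without untreated replicate 1 or 2. Gsta1 rose by 1.55 ± 0.43, a value that its near-identical copies can move, and lost its call without ML324 replicate 1 or 3 or untreated replicate 2 or 3 (adjusted p up to 0.112). Some well-known members of the list were not called. The quinone reductase Nqo1 had 1.23, 3.28 and 4.84 CPM in the ML324 libraries and 3.04, 4.05 and 2.46 CPM in the untreated libraries, haem oxygenase (Hmox1) changed by 0.75 ± 0.24 (adjusted p = 0.0514), and the transcript of NRF2 itself, Nfe2l2, by -0.10 ± 0.09. The difference of ML324 from CPTH6 was 0.75 for Gclc (unadjusted 95% interval 0.28 to 1.21), 0.33 for Srxn1 (0.00 to 0.65) and -0.39 for Slc7a11 (-1.08 to 0.30). None of these genes was called in that comparison.

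Promoter sequences of these genes are shown because NRF2 with small MAF proteins, and AP-1 dimers such as those with the Fosl1 product, are known to bind related short sequences. The 250 bases before the start of each gene were taken from RefSeq on GRCm38.p6, which held 7 of the 9 called genes in 10 windows. Both strands were searched for TGANTCA, the AP-1 motif, which reads the same on both strands, and for TGACNNNGC, the core of the antioxidant response element. The motifs can overlap, as they do in Prdx1. Capitals mark matches, and each line runs 5′ to 3′ on the strand of its gene.
Srxn1: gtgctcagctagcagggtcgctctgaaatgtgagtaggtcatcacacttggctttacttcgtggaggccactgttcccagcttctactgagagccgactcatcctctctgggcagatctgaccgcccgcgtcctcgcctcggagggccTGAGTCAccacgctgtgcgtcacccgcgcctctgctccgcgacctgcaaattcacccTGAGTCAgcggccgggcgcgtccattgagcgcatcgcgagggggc
Prdx1: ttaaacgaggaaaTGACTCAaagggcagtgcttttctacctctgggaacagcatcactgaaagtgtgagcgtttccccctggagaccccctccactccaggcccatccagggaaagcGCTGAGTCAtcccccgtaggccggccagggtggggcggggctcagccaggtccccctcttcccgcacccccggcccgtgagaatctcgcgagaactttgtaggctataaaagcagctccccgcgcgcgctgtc
Gclm: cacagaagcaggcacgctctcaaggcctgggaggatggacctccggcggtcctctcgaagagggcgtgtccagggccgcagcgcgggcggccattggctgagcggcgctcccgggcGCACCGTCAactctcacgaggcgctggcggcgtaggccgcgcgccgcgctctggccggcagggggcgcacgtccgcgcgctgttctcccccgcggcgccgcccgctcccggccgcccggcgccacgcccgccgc
Slc7a11: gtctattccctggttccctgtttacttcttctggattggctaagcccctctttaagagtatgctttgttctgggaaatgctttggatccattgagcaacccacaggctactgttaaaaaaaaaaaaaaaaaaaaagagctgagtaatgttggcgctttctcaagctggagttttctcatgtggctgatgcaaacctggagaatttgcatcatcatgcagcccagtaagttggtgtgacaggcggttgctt
The windows are chr2:152105274-152105523 (plus strand) for Srxn1, chr4:116685349-116685598 (plus) for Prdx1, chr3:122245307-122245556 (plus) for Gclm and chr3:50443614-50443863 (minus) for Slc7a11. Srxn1 held TGANTCA at 102 and 45 bases before the start. Prdx1 held it at 237 and 131 bases, the second overlapping TGACNNNGC on the opposite strand, and Gclm held TGACNNNGC on the opposite strand at 134 bases. Neither motif was in the Slc7a11 window. The windows not printed are those of Gsta1, Pgd and Txnrd1. Among them only the Txnrd1 window chr10:82858956-82859205 held a match, TGACNNNGC on the opposite strand at 92 bases. TGANTCA was in 2 of the 10 windows and in 6.75% of 32817 promoter windows of this length. TGACNNNGC was in 3 of the 10 and in 10.2% of all windows. A match describes letters in a window and is no evidence of binding.

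Among immediate early genes, most were not called, while Fosl1 rose. Of 25 tested, 3 were higher and 2 lower, or 6 lower when scaled by the cholangiocyte markers. With TMM, 7.96% of all genes tested were higher and 11.4% lower. Fosl1 (ENSMUSG00000024912.6, chromosome 19 from 5447547 to 5455946, mm10), the AP-1 subunit FRA1, had 104, 97.9 and 125 CPM in the ML324 libraries, against 24.8, 22.7 and 27.0 CPM in the untreated libraries. The 3 ML324 libraries lay well above the untreated ones, and the change was 2.13 ± 0.13 (edgeR adjusted p = 0.00011). Ier5, a stress-induced regulator, rose by 0.70 ± 0.14, and Klf2, a shear-responsive factor of endothelium, fell by 1.55 ± 0.31. The other called members, Maff (0.51 ± 0.15) and Nr4a1 (-0.58 ± 0.16), lost their calls with single libraries left out. For Maff these were ML324 replicates 1 and 3 and untreated replicates 1 and 3 (adjusted p up to 0.133), and for Nr4a1 ML324 replicates 2 and 3 and untreated replicates 1 and 2 (up to 0.103).

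Of 20 p53 targets, 3 rose and 1 fell, or 2 rose and 6 fell when scaled by the cholangiocyte markers. With TMM, 7.96% of all genes tested rose and 11.4% fell. Gadd45a, a growth arrest gene of the DNA damage response, had 189, 152 and 183 CPM in the ML324 libraries, against 57.8, 57.2 and 62.3 CPM in the untreated libraries, a rise of 1.56 ± 0.11. Cdkn1a, the cell cycle inhibitor p21, had 685, 562 and 761 CPM in the ML324 libraries, against 306, 353 and 257 CPM in the untreated libraries, a rise of 1.13 ± 0.16. Neither gene's groups overlapped. The third, Aen, lost its call with any library but ML324 replicate 2 left out (adjusted p up to 0.14). The apoptosis gene Bax went the other way, by -0.42 ± 0.10, and lost its call without ML324 replicate 1 or 2 or untreated replicate 1 (adjusted p up to 0.0699). The difference of ML324 from CPTH6 was -0.10 for Fosl1 (95% interval -0.37 to 0.17), -0.16 for Gadd45a (-0.41 to 0.09) and -0.23 for Cdkn1a (-0.59 to 0.13).

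EGF receptor ligands and feedback genes moved in both directions, 4 of 18 higher and 4 lower, where 7.96% of all genes were higher and 11.4% lower. Betacellulin (Btc) rose by 0.73 ± 0.14, and the ERK feedback inhibitors Dusp6 and Spry2 by 0.76 ± 0.11 and 0.82 ± 0.12. Another such inhibitor, Spry4, was called lower. That call was lost without ML324 replicate 1 or 3 or untreated replicate 1 or 2 (edgeR adjusted p up to 0.0874). Hbegf, a heparin-binding ligand, had 3247, 1737 and 1763 CPM in the ML324 libraries, against 1068, 1412 and 1001 CPM in the untreated libraries. It rose by 0.95 ± 0.25 but lost its call without untreated replicate 1 or 3 (adjusted p up to 0.0871). Epiregulin (Ereg) fell by 1.90 ± 0.35 and the receptor gene Erbb2 by 0.56 ± 0.13. The lower count was 2 without ML324 replicate 1 or untreated replicate 1 or with the 6 libraries fitted alone, and the higher count was 7 without a filter on low counts.

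**Figure D3:**
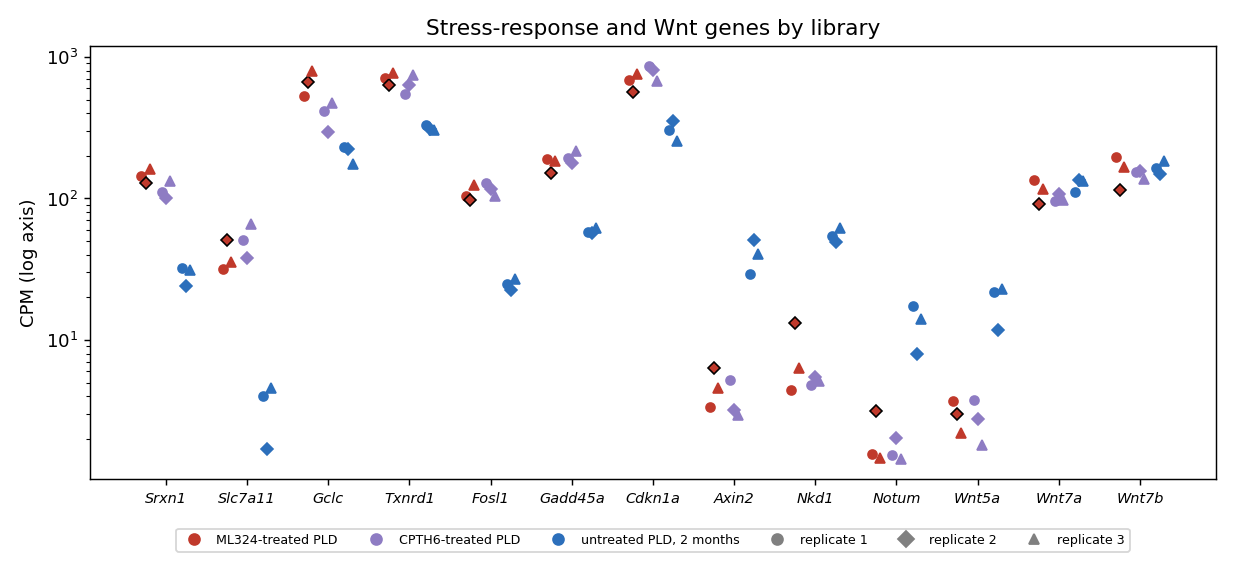
CPM on a log axis of stress-response and Wnt genes in each library, with the ML324 group left, CPTH6 in the middle and untreated PLD right for each gene, and ML324 replicate 2 outlined in black. Srxn1, Slc7a11, Fosl1, Gadd45a and Cdkn1a lie higher and Axin2, Nkd1, Notum and Wnt5a lower in every ML324 library than in every untreated library, while Wnt7a and Wnt7b overlap.

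Some inflammatory genes of myeloid cells and of injured epithelium rose. Of 11 neutrophil markers, 5 were called higher, where 7.96% of all genes were higher. Only S100a8 and S100a9 were called without ML324 replicate 2. The count was also 2 without untreated replicate 1 and 3 without untreated replicate 2, and with all libraries it was 2 by limma-voom, 9 by DESeq2 and 11 without a filter on low counts. S100a9 (ENSMUSG00000056071.12, chromosome 3 from 90692632 to 90695721, mm10), a subunit of the calcium-binding protein calprotectin, had 101, 324 and 55.2 CPM in the ML324 libraries, against 3.50, 3.64 and 9.0 CPM in the untreated libraries. Its change was 4.88 ± 0.95 with replicate 2 and 3.85 without it (edgeR adjusted p = 0.00792 and 0.0105). Retnlg and Ngp, genes of neutrophils, rose by 6.19 ± 1.64 and 5.67 ± 1.75, and lost their calls without replicate 2 (adjusted p = 0.0699 and 0.157) and without each untreated library (adjusted p up to 0.0952 and 0.141). Ngp also lost its call without ML324 replicate 1 (0.0644). Ngp had 11.8, 70.8 and 1.89 CPM in the ML324 libraries, against 0.169, 1.23 and 0.237 CPM in the untreated libraries. In the CPTH6 libraries Ngp had 5.06, 181 and 195 CPM, and S100a9 had 39.1, 211 and 376 CPM.

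The rises of Acod1, Trem1, Clec4d and Il1f9 kept their calls with each library left out. Acod1, the itaconate-producing enzyme of activated myeloid cells, had 90.0, 143 and 97.0 CPM in the ML324 libraries, against 6.14, 4.36 and 14.3 CPM in the untreated libraries, and rose by 3.73 ± 0.43. Trem1, an activating receptor of neutrophils and monocytes, rose by 3.41 ± 0.43, Clec4d, a C-type lectin, by 2.83 ± 0.36, and Il1f9 (interleukin-36 gamma, made by stressed epithelium) by 4.73 ± 0.76. Replicate 2 was the highest ML324 library for these 4 genes, and neutrophil markers moved with them. The part of those cells in the rises was not tested.

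Of 26 NF-kB subunits and targets, 6 were higher and 2 lower, where 7.96% of all genes were higher and 11.4% lower. Without untreated replicate 3 the higher count was 3, and with cholangiocyte scaling 5 were lower. Lcn2, lipocalin 2, an iron-chelating protein of neutrophils and of injured epithelium, had 1280, 801 and 1297 CPM in the ML324 libraries, against 290, 319 and 548 CPM in the untreated libraries. It rose by 1.55 ± 0.34, and replicate 2 was the lowest ML324 library, unlike for the neutrophil markers. Il1b had 141, 168 and 127 CPM in the ML324 libraries, against 55.5, 23.4 and 71.0 CPM in the untreated libraries, and rose by 1.54 ± 0.37. In the other direction, Tnf fell by 1.42 ± 0.26 and the monocyte chemokine genes Ccl2 and Ccl12 by 2.15 ± 0.43 and 4.16 ± 0.62.

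Interferon-stimulated genes such as Ifit3 were highest in untreated replicate 2, and their calls depended on the libraries used. Of 30 tested, 9 were called lower and 0 higher (median -1.36), where 11.4% of all genes were lower and 7.96% higher. Ifit3, which encodes an antiviral RNA-binding protein, had 14.2, 20.5 and 46.2 CPM in the ML324 libraries, against 34.5, 1092 and 70.6 CPM in the untreated libraries. Untreated replicate 2 lay far above all others, and ML324 replicate 3 lay within the range of the other 2 untreated libraries. The count of lower genes was 3 without ML324 replicate 1, 2 or 3, 21 without untreated replicate 1 and 4 without untreated replicate 2. It was 3 by limma-voom or with the 6 libraries fitted alone, and 25 without a filter on low counts. Rsad2 and Ifit2 kept their calls with each library left out. Rsad2 (viperin) had 28.0, 22.8 and 25.2 CPM in the ML324 libraries, against 83.1, 373 and 77.1 CPM in the untreated libraries, and fell by 2.81 ± 0.55, and Ifit2 fell by 2.46 ± 0.40.

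**Figure D4:**
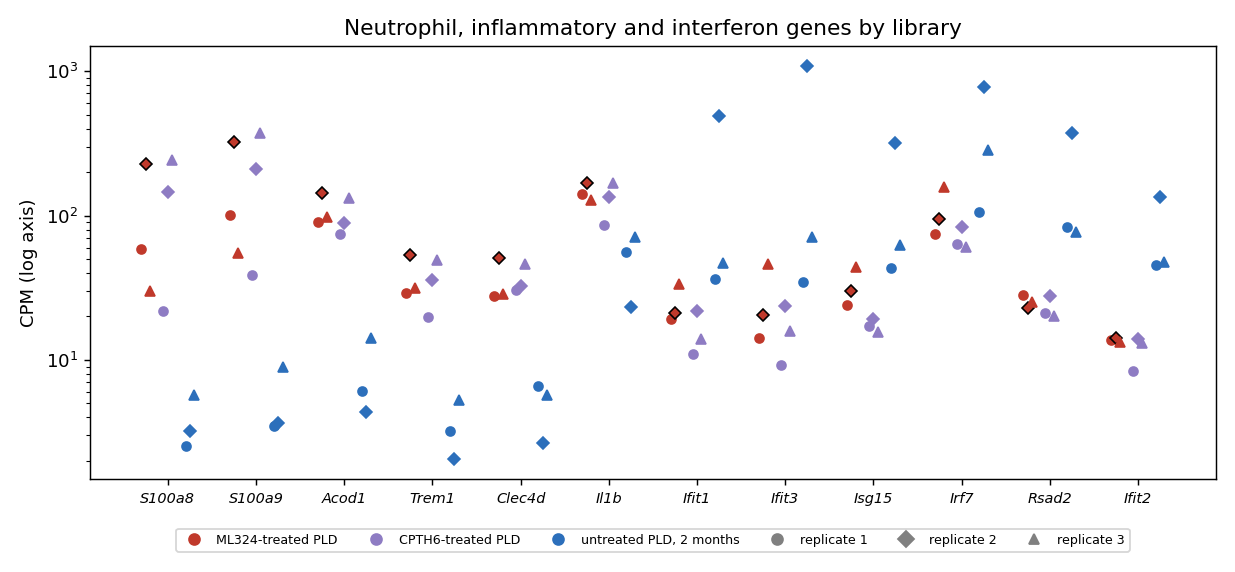
CPM on a log axis of neutrophil, inflammatory and interferon-stimulated genes in each library, with the ML324 group left, CPTH6 in the middle and untreated PLD right for each gene. The ML324 libraries spread from 55.2 to 324 CPM for S100a9 with replicate 2 on top, and untreated replicate 2 lies above all other libraries for the interferon-stimulated genes.

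Most of the tested feedback targets of canonical Wnt signalling fell. In that pathway, secreted Wnt proteins stabilise beta-catenin, which induces its own inhibitors and other genes of the pathway. Of 12 such targets tested, 8 were lower and 0 higher (median -2.11), where 11.4% of all genes were lower and 7.96% higher. The lower count was 7 without ML324 replicate 2, and 6 or 7 with any other library of the 6 left out. The list also holds genes that are not inhibitors, such as Lef1, Tcf7 and the receptor Lgr4. Tcf7 lost its lower call with any of the 6 libraries left out (edgeR adjusted p up to 0.144). Axin2 (ENSMUSG00000000142.15, chromosome 11 from 108920349 to 108950783, mm10), a scaffold of the beta-catenin destruction complex, had 3.36, 6.33 and 4.54 CPM in the ML324 libraries, against 29.1, 50.7 and 40.4 CPM in the untreated libraries. All ML324 libraries lay far below, and the change was -3.08 ± 0.31 (edgeR adjusted p = 0.000699). Nkd1, an inhibitor of Dishevelled, fell by 2.79 ± 0.33, Apcdd1, a membrane inhibitor of Wnt receptors, by 3.22 ± 0.27, and Notum, an extracellular enzyme that inactivates Wnt proteins, by 2.67 ± 0.38. The receptor-removing ligases Rnf43 (-0.18 ± 0.25) and Znrf3 (0.26 ± 0.12) and the receptor Lgr4 (0.43 ± 0.14) were not called. On a common scaling of all 18 libraries, Axin2 averaged 4.76 ± 1.56 CPM in the ML324 libraries and 41.6 ± 11.5 CPM in untreated PLD at 2 months, beside 23.7 ± 3.35 CPM in PLD at 1 month and 10.5 ± 1.85 CPM in wild type at 2 months (SD, n = 3 each).

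Of 14 Wnt ligands and R-spondins, 6 were lower and 0 higher, where 11.4% of all genes were lower and 7.96% higher. Wnt5a, a ligand mostly of the non-canonical branch, had 3.69, 2.99 and 2.18 CPM in the ML324 libraries, against 22.0, 11.8 and 23.0 CPM in the untreated libraries, and fell by 2.68 ± 0.35. Wnt10a fell by 1.15 ± 0.18. The abundant ligands Wnt7a (-0.13 ± 0.14) and Wnt7b (-0.06 ± 0.18) were not called. Wnt7b had 196, 115 and 167 CPM in the ML324 libraries and 163, 150 and 186 CPM in the untreated libraries, with overlapping groups. Stromal markers fell in the same libraries, and their part in the fall of the Wnt genes was not tested.

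In other signalling lists that act between duct and stroma, more genes were called lower than higher. The same held over all genes tested, with 11.4% lower and 7.96% higher. Of 14 Hedgehog genes 6 were lower and 0 higher, among them the target and effector Gli1 (-2.84 ± 0.41) and the ligand-binding inhibitor Hhip (-2.69 ± 0.44). Of 20 TGF-beta genes 10 were lower and 2 higher. The ligands Tgfb1 and Tgfb3 fell by 1.30 ± 0.21 and 1.35 ± 0.25 and the latency protein gene Ltbp2 by 3.52 ± 0.43, while the signal transducer Smad3 rose by 0.68 ± 0.15. Skil, the other higher gene, lost its call without ML324 replicate 1 or 3 or any untreated library (adjusted p up to 0.0827). Of 17 Notch genes 6 were lower, among them the mural cell receptor Notch3 (-2.08 ± 0.30), the endothelial receptor Notch4 (-1.94 ± 0.38) and the target Heyl (-1.57 ± 0.27). Of 19 YAP and TEAD targets 6 were lower and 1 higher (F3, lost without ML324 replicate 3 or untreated replicate 1 or 3, adjusted p up to 0.0539), with Ccn1 at 381, 249 and 314 CPM in the ML324 libraries and 521, 752 and 637 CPM in the untreated libraries (-1.02 ± 0.18), and 11 were lower when scaled by the cholangiocyte markers. Of 24 genes of secretin, somatostatin and cAMP signalling, the axis that drives fluid secretion by ducts, 9 were lower and 0 higher. Adenylyl cyclase 7 (Adcy7) fell by 2.87 ± 0.27, and the kinase subunit Prkaca had 37.7, 37.7 and 39.5 CPM in the ML324 libraries, against 55.8, 54.0 and 54.9 CPM in the untreated libraries (-0.52 ± 0.08). Without ML324 replicate 2 the lower counts were 7 for Hedgehog, 9 for TGF-beta, 7 for Notch, 6 for YAP and TEAD targets and 10 for cAMP signalling. The stromal and endothelial marker lists moved with these genes, and their part in the changes was not tested.

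In the basement membrane list, collagen IV and nidogen genes fell. Of 20 tested, 10 were lower and 1 higher, where 11.4% of all genes were lower and 7.96% higher. The higher count was 0 without ML324 replicate 1 or 3 or untreated replicate 2 or 3. The collagen IV genes Col4a1 and Col4a2 fell by 2.10 ± 0.24 and 2.14 ± 0.20, nidogen 1 (Nid1) by 2.67 ± 0.35, and the laminin alpha 2 chain of muscle and mesenchyme (Lama2) by 2.81 ± 0.38. The laminin chain genes Lama3 (0.15 ± 0.14) and Lamb3 (0.05 ± 0.12), which epithelia express, were not called. Of 17 metalloproteinases and inhibitors, 10 were lower and 1, Adam8, higher, a call lost without ML324 replicate 2 or untreated replicate 1 or 2 (adjusted p up to 0.0629). The lower count was 6 without ML324 replicate 1 or 3 and 5 without untreated replicate 1 or 3 or with the 6 libraries fitted alone. The gelatinase gene Mmp2 had 23.7, 47.2 and 17.4 CPM in the ML324 libraries, against 352, 360 and 382 CPM in the untreated libraries (-3.63 ± 0.34), and the inhibitor gene Timp3 fell by 1.16 ± 0.12.

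Of 19 cholangiocyte markers 2 were called higher, Epcam and Pkhd1, and 0 lower (median 0.31), and 8 had an unadjusted p under 0.05. Over all genes tested, 7.96% were higher and 11.4% lower. Without ML324 replicate 2 the counts of these markers were 3 higher and 1 lower. The higher count was 8 with DESeq2 and 6 without a filter on low counts, and 1 without ML324 replicate 3. Epcam, the protein used for capture, had 756, 711 and 908 CPM in the ML324 libraries, against 503, 400 and 513 CPM in the untreated libraries, and rose by 0.75 ± 0.14. Of 33 genes of epithelial junctions and polarity, 6 were higher and 1 lower (11 higher with DESeq2, 2 with cholangiocyte scaling), 9 higher and 1 lower without ML324 replicate 2, and 2 or 3 higher with any other library left out. The desmosome gene Pkp3 rose by 0.60 ± 0.12. Of 15 surface genes known to be gained in these cysts, a list chosen with earlier results of these data in view, 0 were called in either direction by edgeR, 5 had an unadjusted p under 0.05, and DESeq2 called 3 higher. Without ML324 replicate 2, Cldn4 was higher and Upk1b lower. Mesothelin (Msln) had 906, 729 and 1123 CPM in the ML324 libraries and 1036, 1255 and 1034 CPM in the untreated libraries (-0.27 ± 0.18), and Psca had 66.2, 55.0 and 106 CPM in the ML324 libraries and 90.4, 60.3 and 97.8 CPM in the untreated libraries (-0.13 ± 0.24). Both pairs of groups overlapped.

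Among inherited disease genes, Pkd1 (ENSMUSG00000032855.6, chromosome 17 from 24549834 to 24596508, mm10), polycystin-1, had 132, 114 and 111 CPM in the ML324 libraries, against 194, 197 and 182 CPM in the untreated libraries. It fell by 0.68 ± 0.10 (edgeR adjusted p = 0.00215) without overlap. Pkhd1, fibrocystin, had 428, 411 and 448 CPM in the ML324 libraries, against 288, 194 and 290 CPM in the untreated libraries, and rose by 0.74 ± 0.17, a call lost without ML324 replicate 3 (adjusted p = 0.0518). Pkd2 (0.07 ± 0.13), Prkcsh (0.00 ± 0.09) and Sec63 (0.07 ± 0.08) were not called. Of 38 genes of the primary cilium, the organelle in which polycystins act, 3 were higher and 1 lower. Over all genes, 7.96% were higher and 11.4% lower. Cep290 of the transition zone changed by 0.55 ± 0.09, Arl13b by 0.53 ± 0.10 and the adaptor Tulp3 by -0.89 ± 0.15.

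No transcript of the compound's target family was called with TMM scaling. Kdm4a (ENSMUSG00000033326.15, chromosome 4 from 118136957 to 118180043, mm10) had 82.4, 74.2 and 59.6 CPM in the ML324 libraries and 72.1, 70.5 and 80.5 CPM in the untreated libraries, with overlapping groups and a change of -0.05 ± 0.13. Kdm4b changed by -0.31 ± 0.13 (edgeR adjusted p = 0.116) and Kdm4c by 0.03 ± 0.11, and Kdm4d had too few counts to test. Kdm4b was called lower when scaled by the cholangiocyte markers (adjusted p = 0.029). Of 21 histone lysine demethylases tested, 4 were higher and 1 lower, where 7.96% of all genes were higher and 11.4% lower. The count of higher genes was 1 without ML324 replicate 3, without untreated replicate 3 or with cholangiocyte scaling (then 3 were lower), and 2 without untreated replicate 1. The lower gene, Kdm2b (-0.34 ± 0.09), lost its call with any library but untreated replicate 3 left out (adjusted p up to 0.0879). Jmjd1c, a relative of the H3K9 demethylases, had 462, 391 and 352 CPM in the ML324 libraries, against 226, 180 and 186 CPM in the untreated libraries, and rose by 1.02 ± 0.15, a call kept under all 14 alternatives. Its difference from CPTH6 was -0.42 (unadjusted 95% interval -0.75 to -0.10) and was not called. Of 18 genes in a list of H3K9 and H3K36 methyltransferases, HP1 proteins and cofactors, 1 was lower, the cofactor Atf7ip (-0.35 ± 0.10). Atf7ip lost that call with any library but untreated replicate 1 left out (adjusted p up to 0.119).

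The counts for respiration, DNA replication and mitosis stand beside 7.96% of all genes called higher and 11.4% called lower. Of 34 nuclear genes of oxidative phosphorylation 2 were higher and 0 lower, and of 30 DNA replication genes 2 were higher and 0 lower. The clamp loader gene Rfc5 rose by 1.20 ± 0.21, and the clamp gene Pcna lost its call without ML324 replicate 3 or untreated replicate 3 (adjusted p up to 0.054). Of 29 mitosis genes 1 was higher and 2 lower. The kinase gene Cdk1 had 2.01, 2.46 and 2.60 CPM in the ML324 libraries, against 5.24, 3.18 and 8.53 CPM in the untreated libraries. Its call was lost without any ML324 library or untreated replicate 1 or 3 (adjusted p up to 0.112), that of Plk1 without any ML324 library or untreated replicate 2 or 3 (up to 0.151), and that of Kif23, the higher one, without ML324 replicate 1 or 3 or untreated replicate 2 or 3 (up to 0.0931). With cholangiocyte scaling 6 were lower. Of 28 genes of autophagy and lysosomes 6 were lower and 1 higher, where 11.4% of all genes were lower and 7.96% higher. The higher one, Sqstm1, the cargo receptor p62 and an NRF2 target, had 2368, 2366 and 2553 CPM in the ML324 libraries, against 1404, 1445 and 1122 CPM in the untreated libraries (0.88 ± 0.13). Its difference from CPTH6 was -0.55 (unadjusted 95% interval -0.84 to -0.26) and was not called (edgeR adjusted p = 0.248). The cathepsin gene Ctsb and the hexosaminidase gene Hexa fell by 0.80 ± 0.13 and 1.04 ± 0.16.

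**Figure D5:**
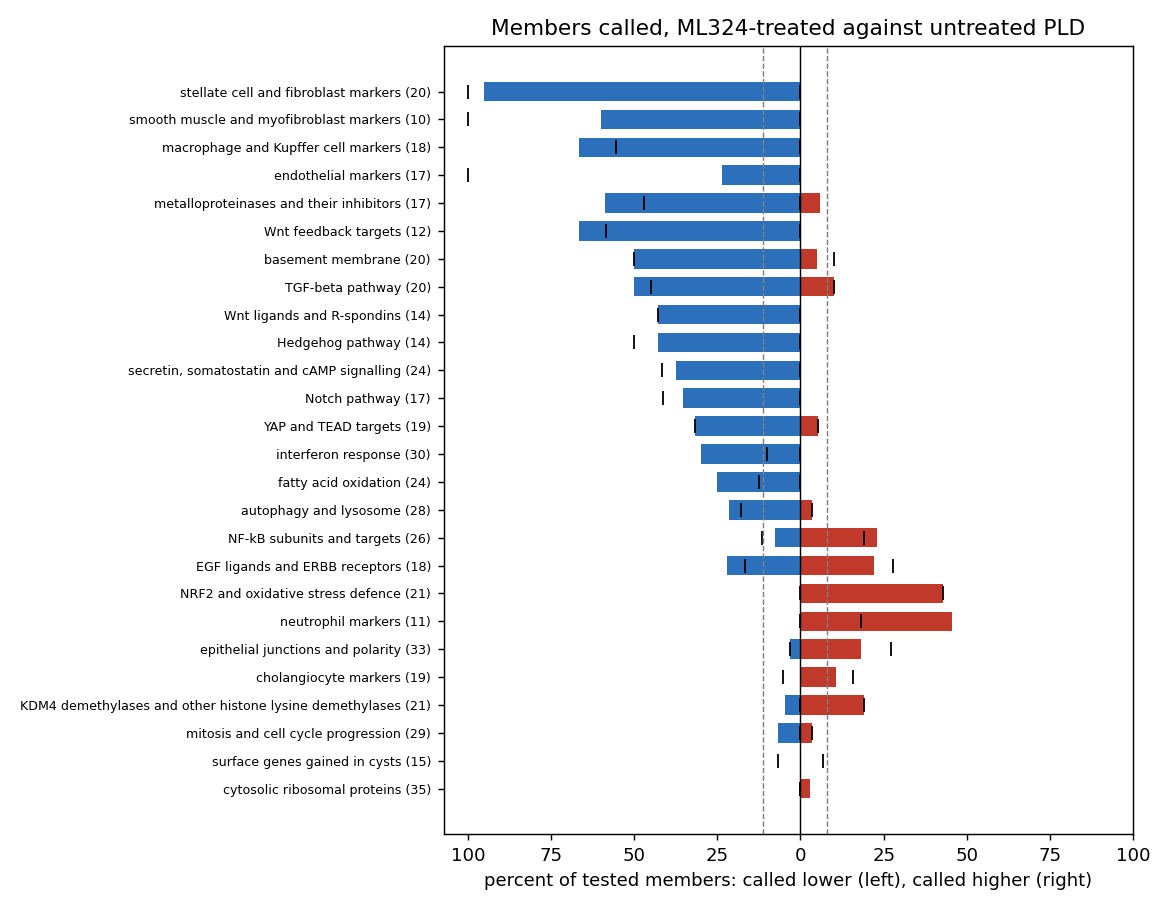
Percent of the tested members of 26 gene lists called lower (blue, left) and higher (red, right) in ML324-treated against untreated PLD, with the number tested in brackets. Black ticks give the same without ML324 replicate 2, and dashed lines mark 11.4% and 7.96%, the shares of all genes called lower and higher; the stromal lists lie far left and the NRF2 list right of the lines.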

How the data were processed

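RNA was measured in primary mouse cholangiocytes. The authors deposited raw counts per gene (polyA RNA, mm10), and the submitters' processing notes name STAR 2.7.4a, SAMtools 1.12, featureCounts 1.6.0 and DESeq2 1.26.0. Per the file headers, counting used no strand option, so a gene and its antisense partner cannot be told apart, and near-identical copies can move each other's counts. Of 55401 genes, 55141 had a symbol.

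The 9 libraries of the ML324, CPTH6 and untreated 2 month PLD groups entered 1 fit with a mean per group (edgeR 4.0.16 in R 4.3.3, filterByExpr, TMM, quasi-likelihood F-test, 6 residual degrees of freedom), with Benjamini-Hochberg adjustment over all 16502 genes. The CPTH6 libraries share the estimate of spread. Standard errors follow from the fold change and its F statistic (absolute log2 value over root F), and a prior count of 2 enters log2 CPM. The same test was tried on simulated counts of 16192 genes, where it called 54% of genes changed 2-fold and 89% of genes changed 4-fold, with 9 false calls. Only 100 genes were changed at each size, against 3203 called in the data, so these rates may not hold for the real comparison. Alternatives used DESeq2 1.42.0, limma-voom 3.58.1, other scalings and filters, a replicate block and each library left out. Without a library, the fit pools the spread of the rest.

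The comparison and the 49 gene lists were chosen with earlier results of these data known, so list counts are descriptions. Genes named were the 12 largest called changes in each direction without overlap and with at least 10 CPM in the higher group, the 10 most abundant called genes, up to 4 called members of each list and a set of disease and target genes. Other list members (among them Clec4g, the C1q genes, Nqo1, Hmox1, Nfe2l2, Wnt7a, Wnt7b and the laminin genes, and members whose call a left-out library ended) were named after their values were seen. Some genes are not reported here. List counts under each alternative were added after seeing the data.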

Additional observations from a re-analysis of the deposited data

How the results depend on the processing

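The 3203 genes called in ML324-treated against untreated PLD (1314 higher, 1889 lower) became 1939 to 3043 with any single library left out, 721 to 1133 higher and 1148 to 1910 lower. The lowest counts were without ML324 replicate 3 (1939) and untreated replicate 3 (2007). Other tools and filters gave 3096 (limma-voom) to 4073 (no filter), and the 6 libraries alone gave 2340. Scaling by the cholangiocyte markers gave 549 higher and 3129 lower. The cause was not tested. A fit with the replicate number as a block called 3006 (1205 higher, 1801 lower). Under it 13 of 17 endothelial markers were lower (4 without it), 3 of 30 interferon genes (9 without it) and 2 of 13 hepatocyte markers (4 without it). Deviations of same-numbered ML324 and untreated libraries correlated at 0.07, 0.12 and 0.04, and those of differently numbered ones at -0.13 to 0.10. Between ML324 and CPTH6, same-numbered libraries correlated at 0.32, 0.20 and -0.11, and differently numbered ones at -0.37 to 0.25. These values do not settle whether the numbers pair the samples, and the main fit did not pair them.

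For ML324 against CPTH6, edgeR called 0 genes, DESeq2 184 (91 higher, 93 lower), edgeR without the filter 765 (423 higher, 342 lower), and 0 to 1 with any single library left out (1 higher without ML324 replicate 3). The replicate block called 0.

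Of 176 genes named and called, 115 kept their call under all 14 alternatives, and none of the 195 named reversed. In simulated data at this depth, with far fewer changed genes than were called here, 54% of 2-fold changes were called. A gene not called is not shown to be unchanged.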

Other observations

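The metallothionein genes Mt1 and Mt2, neighbours on chromosome 8 that usually respond together to zinc and glucocorticoids, differed in size of change. Mt2 (ENSMUSG00000031762.7, from 94172664 to 94173568, mm10) had 1.06, 1.11 and 1.89 CPM in the ML324 libraries, against 48.3, 49.3 and 29.1 CPM in the untreated libraries, a change of -4.96 ± 0.37 (edgeR adjusted p = 0.000267). Mt1 had 343, 410 and 394 CPM in the ML324 libraries, against 546, 616 and 420 CPM in the untreated libraries, and was not called (-0.46 ± 0.19). Mt2 had 2.25, 4.96 and 3.10 CPM after CPTH6. On the common scaling of 18 libraries its mean was 1.36 ± 0.462 CPM after ML324 and 43.9 ± 11.9 CPM in untreated PLD at 2 months, beside 4.43 ± 0.602 CPM in PLD at 1 month and 4.51 ± 2.99 CPM in wild type at 2 months (SD, n = 3 each), so the untreated 2 month PLD libraries were the high ones.

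Hepatocyte transcripts did not move together. Cyp2e1, an oxidase of pericentral hepatocytes, had 23.4, 46.7 and 28.7 CPM in the ML324 libraries, against 408, 637 and 329 CPM in the untreated libraries (-3.80 ± 0.31), while albumin (Alb) had 4163, 3399 and 2835 CPM in the ML324 libraries and 4656, 1459 and 4356 CPM in the untreated libraries (-0.01 ± 0.36, not called). Of the 13 hepatocyte markers tested, 4 were lower, where 11.4% of all genes were lower. The count was 2 without ML324 replicate 1 or 2 or untreated replicate 1 or 2, by limma-voom or with the 6 libraries fitted alone.

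Involucrin (Ivl), a cornified envelope protein of stratified epithelium, had 49.8, 30.5 and 39.1 CPM in the ML324 libraries, against 1.86, 5.03 and 2.18 CPM in the untreated libraries, a rise of 3.71 ± 0.36. The groups did not overlap, and the difference of ML324 from CPTH6 was 0.14 (95% interval -0.55 to 0.82).

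Of 12 genes of mitochondrial DNA tested, 4 were called higher, where 7.96% of all genes were higher. All 4 had under 10 CPM in each of the 6 libraries (mt-Co2 at 9.40, 8.97 and 8.14 CPM in the ML324 libraries, against 5.64, 5.08 and 5.31 CPM in the untreated libraries). The abundant mt-Co1 had 7222, 8457 and 8455 CPM in the ML324 libraries and 7143, 8110 and 6142 CPM in the untreated libraries and was not called. The count was 2 without ML324 replicate 2 or 3 or untreated replicate 3, with cholangiocyte scaling or with the 6 libraries fitted alone. Nuclear copies share sequence with these genes, so their counts are uncertain.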
